A study of Rattus norvegicus with 6 samples.

Results

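The genes described here are 9 members of the JAK, STAT and SOCS signalling system in the rat hippocampus, out of 17506 genes that the arrays could name: the kinases Jak1, Jak2 and Jak3, the transcription factors Stat2, Stat3, Stat5a, Stat5b and Stat6, and the feedback inhibitor Socs3. They were chosen by gene name, through the symbol or the transcript accession of each probe. Each gene was read by 1 probe of 60 bases, so 9 probes carry the results. RNA was pooled from the hippocampus of male rats of the Wistar strain and hybridised to 6 one-colour Agilent arrays. 1 array held RNA of control rats, labelled 12 weeks old, and 5 arrays held RNA taken 21, 35, 45, 55 or 70 days after BCCAo, the permanent ligation of both common carotid arteries under isoflurane. The labelled ages of these later groups were 13, 14, 15, 16 and 17 weeks, a spacing that does not match the days, and another label gives 12 weeks for every group. How many rats made up a pool and whether control rats underwent sham surgery is not stated in the labels.

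Cytokine receptors without a kinase of their own carry JAK kinases on their inner side. When a ligand joins the receptor chains, the kinases phosphorylate each other and the receptor, STAT proteins dock there and are phosphorylated in turn, and the STATs pair and enter the nucleus to act on gene promoters. SOCS genes are among the genes they switch on, and the SOCS proteins then block the kinases or the receptor, which closes a feedback loop. In the brain the system is best known for the response of astrocytes and microglia to injury, for interferon responses, and for signals of the IL-6 family and of leptin. These arrays measure RNA. The activity of the pathway depends on phosphorylation, which was not measured.

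The probes of Socs3 and Stat5b are shown because these genes had the widest spans over the 6 arrays, and those of Stat6 and Jak2 are shown beside them as members that stayed within 2-fold of control on every day. Read in triplets from the first base, none of the 4 has an inner stop triplet. The Socs3 probe ends in one, set in capitals, and the others are in lower case throughout. Sequences and positions are those of the array files, in genome build rn4, and no exon annotation of that build was used here.
Socs3: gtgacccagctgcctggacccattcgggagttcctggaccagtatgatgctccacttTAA
Stat5b: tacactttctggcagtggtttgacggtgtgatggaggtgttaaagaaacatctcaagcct
Stat6: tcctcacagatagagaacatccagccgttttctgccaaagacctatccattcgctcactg
Jak2: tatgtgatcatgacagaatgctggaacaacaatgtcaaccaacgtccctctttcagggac
The Socs3 probe lies on the minus strand at chr10:107958636-107958695 and the Stat5b probe on the minus strand at chr10:89722209-89722268. The Stat6 probe lies on the plus strand at chr7:67639581-67639640 and the Jak2 probe on the plus strand at chr1:232974483-232974542. The probes of Stat5b, Stat5a and Stat3 are neighbours on chromosome 10. The Stat5b and Stat5a probes are 97.3 kb apart, and the Stat5a and Stat3 probes only 1.48 kb apart, on opposite strands. Stat5a and Stat5b encode close relatives, and whether either probe also binds the other gene's RNA was not tested.

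Values below are processed signals scaled to the control array by the 75th percentile of each array. A difference is the log2 of a day over control. With 1 array per group no difference has a replicate check and none was tested. The arrays give a technical spread only: among probes printed 10 times, the SD expected of a difference between single spots of 2 arrays was 0.072 to 0.116 (log2) for probes no dimmer than 4 log2 units under the 75th percentile, 0.156 for the next log2 unit, and 0.380 for dimmer probes still. 1 slide carried control with days 21 and 35, and another carried days 45, 55 and 70. For the later days time and slide therefore cannot be told apart. Of all genes, 12683 to 13742 per array were well above background. All 9 neuron markers were well above background on every array, except that the probe used for Gad1 had no value at day 35.

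At day 21 several members were moderately higher, and no member reached 2-fold in either direction. On that array 3 of the 9 members were at least 1.5-fold higher, namely Stat5a, Jak3 and Stat3, and none was 1.5-fold lower. Of all 13908 genes compared, 7.76% were 1.5-fold or more above control and 5.34% as far below it, while 3.61% and 1.83% passed 2-fold. The median of the members was 0.32 (log2), and that of all genes was -0.07. Stat3 sat at the 1.5-fold line, with a fold of 1.5.

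Jak3, the kinase that pairs with the common gamma chain of the receptors for IL-2 and its relatives and is best known from blood cells, was the kinase with the widest span. Its signal was 2009.5 at day 21, 1422.6 at day 35, 1463.7 at day 45, 1587.5 at day 55 and 1379.2 at day 70, against 1244.4 in control. Every later array was thus above control, the day 21 array by a clear margin. The difference was 0.69 at day 21, which 6.28% of all genes matched or passed, and 0.15 to 0.35 on the later days. Jak1, which serves many cytokine receptors, had signals of 1236.9, 1298.4, 1289.6, 1367.5 and 1346.0 on days 21 to 70, against 1307.9 in control. These 6 values spanned 0.14 log2 units, the narrowest span of the members. Jak2, the kinase of the growth hormone, erythropoietin and leptin receptors, had signals of 345, 389, 322, 354 and 335 on days 21 to 70, against 325 in control. Its highest value was the day 35 one, a difference of 0.26, and its other days lay within 0.13 of control.

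Stat3, the factor downstream of the IL-6 family that takes part in astrocyte reactivity, had a signal of 1197.6 at day 21, 788 at day 35, 801 at day 45, 828 at day 55 and 807 at day 70, against 798 in control. Only the day 21 array stood apart: its difference was 0.59, and the others were between -0.02 and 0.05. Stat2, a factor of the response to type I interferon, was also highest at day 21, by less. Its signal was 2139.4 at day 21, 1440.8 at day 35, 1557.5 at day 45, 1640.7 at day 55 and 1546.4 at day 70, against 1649.2 in control, a difference of 0.38 at day 21 and of -0.19 to -0.01 later.

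Stat5a and Stat5b, which carry signals of growth hormone, prolactin and several haematopoietic cytokines, had unlike profiles. Stat5a was printed on 10 spots. Its signal was 300.0 at day 21, 170 at day 35, 190 at day 45, 182 at day 55 and 191 at day 70, against 164 in control. The SD between its spots was 0.042 (log2) at day 21 and 0.098 in control, a spread within each array and not between pools. The difference of 0.88 at day 21 was far larger than this spread between spots. It is the largest upward difference of the members, and 4.55% of all genes matched or passed it. Stat5b had a dim probe, with signals of 44.3 at day 21, 32.2 at day 35, 21.7 at day 45, 27 at day 55 and 22 at day 70, against 52.9 in control. All arrays after the occlusion were under control, with differences of -0.26 at day 21 and -0.72 at day 35. On day 45 the probe was not well above background.

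Stat6, the factor of IL-4 and IL-13 signals, had signals of 74.0 at day 21, 69.7 at day 35, 47.9 at day 45, 43.5 at day 55 and 41.5 at day 70, against 59.2 in control. Its values were above control on the slide shared with control and below control on the other slide. The differences were 0.32 and 0.23 on days 21 and 35, and -0.31, -0.44 and -0.51 on days 45, 55 and 70. Under quantile normalization these last 3 differences were 0.18, -0.16 and -0.09, and in the authors' deposited table they were 0.18, -0.12 and -0.11, so that day 45 lay on the other side of control and days 55 and 70 closer to it.

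**Figure D1:**
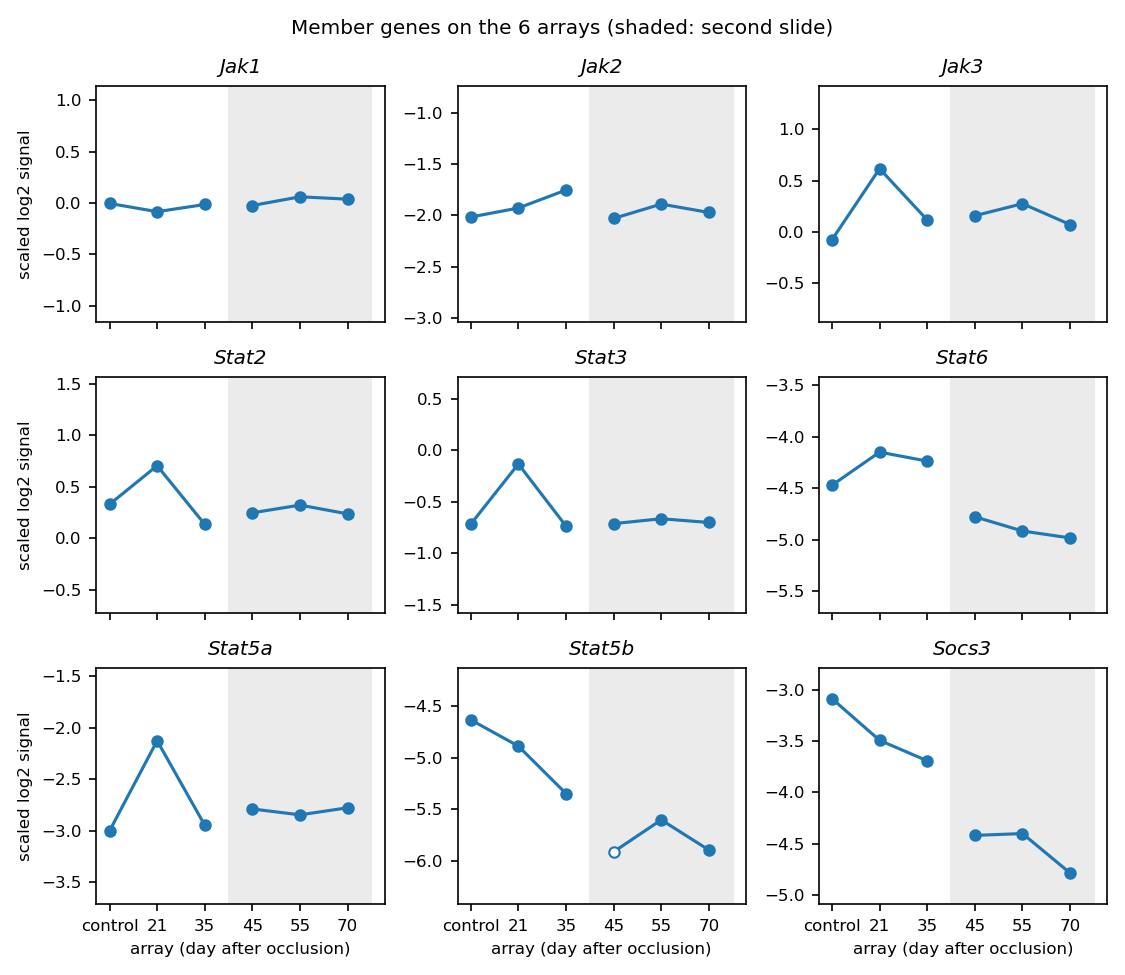
Scaled log2 signal (log2 of the processed signal minus that of the array's 75th percentile) of the 9 genes on the control array and on 5 days after occlusion; the panels span equal ranges, points are single arrays, lines join arrays of 1 slide, shading marks the second slide, and the open point is not well above background. Jak3, Stat2, Stat3 and Stat5a have their highest value on the day 21 array, and all 3 Socs3, Stat5b and Stat6 values of the second slide lie below those of the first.

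Between day 21 and day 35, both on the slide of the control array, 2 of the 9 members were at least 1.5-fold lower at day 35, Stat3 and Stat5a, and none reached 2-fold. The differences of day 35 from day 21 were -0.82 for Stat5a, -0.60 for Stat3, -0.57 for Stat2 and -0.50 for Jak3. Of all 13735 genes compared, 9.1% were 1.5-fold lower and 3.89% 1.5-fold higher, and 4.5% and 1.03% passed 2-fold. The members' median was -0.46, against 0.03 for all genes. Against control, day 35 had no member 2-fold away. Stat5b and Socs3 were at least 1.5-fold lower, beside 4.24% of all genes, and no member was 1.5-fold higher, beside 1.52% of all genes. The share of all genes at least 2-fold away at day 35 was 1.13% lower and 0.452% higher.

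The member with the widest span over the 6 arrays was Socs3, the inhibitor that binds JAK kinases and the gp130 receptor chain of the IL-6 family. Its signal was 116 at day 21, 101 at day 35, 61.3 at day 45, 62.1 at day 55 and 47.6 at day 70, against 154 in control. Every array after the occlusion was below control. The 3 arrays of the second slide were below the 3 of the first, as they also were for Stat5b and Stat6. The share of all genes with this order of slides is not given here. The differences were -0.41 at day 21 and -0.60 at day 35, both within 1 slide. Of all genes, 11.2% and 3.89% were as low or lower on these 2 days. Both differences exceed the technical SD of 0.116 for such signals, which covers spots only and not pools or hybridisations. With the normexp background correction described below they were -0.22 and -0.41. Across slides the differences were -1.33 at day 45, -1.31 at day 55 and -1.70 at day 70, or 2.51, 2.48 and 3.24-fold lower. Of all genes, 2.77%, 2.53% and 1.57% were as low or lower on those days.

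Stat5b was the other member past 2-fold on the later days. It was at least 2.44-fold lower at day 45, a bound because the probe was not well above background there, 1.96-fold lower at day 55 and 2.4-fold lower at day 70. The members at least 2-fold lower were therefore 2 of 9 at day 45, 1 at day 55 and 2 at day 70, beside 5.78%, 4.98% and 6.73% of all genes. No member was 2-fold higher on those days, beside 0.596%, 0.652% and 0.663% of all genes. At 1.5-fold, 2 members were lower on each of these days, beside 12.7%, 11.1% and 13.4% of all genes, and none was higher, beside 1.19%, 1.68% and 1.38%. The members' medians were -0.02, 0.05 and 0.02, close to the medians of all genes at -0.06, -0.04 and -0.04.

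**Figure D2:**
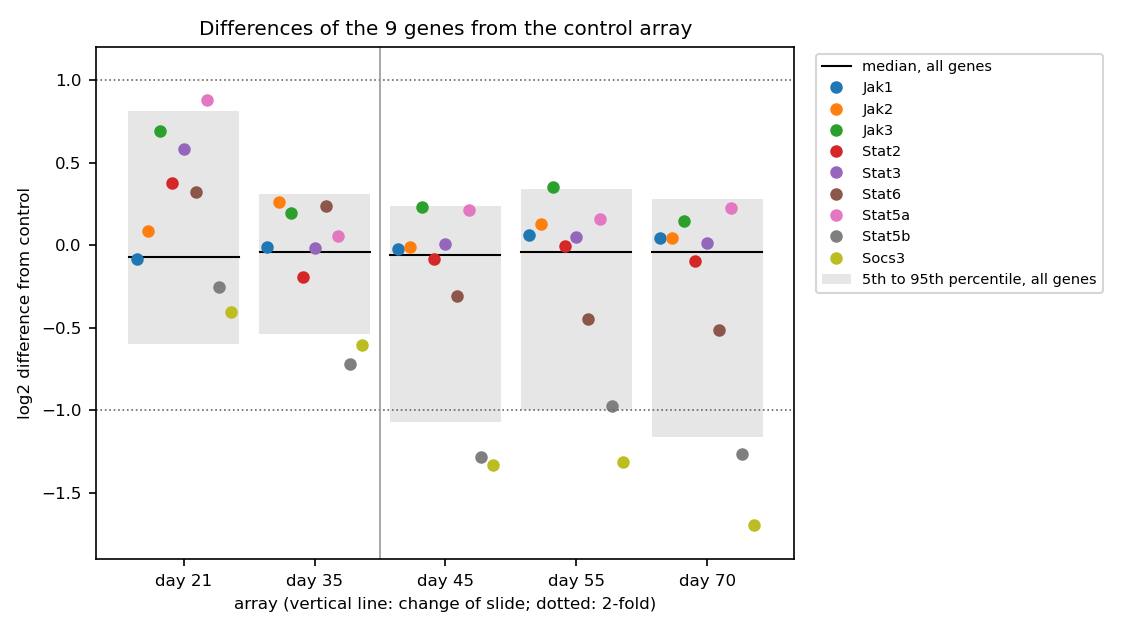
Difference of each of the 9 genes from control (log2, points) on 5 days; grey bars run from the 5th to the 95th percentile of all genes compared, black lines are their medians, dotted lines mark 2-fold and the vertical line the change of slide. Stat5a at 0.88 is above the grey bar at day 21, and Socs3 lies below the bar on days 35 to 70, at -1.70 on the last. Stat5b also lies below the bar on days 35, 45 and 70, and Jak3 at 0.35 is just above it at day 55.

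Within the second slide the Socs3 difference was 0.02 for day 55 minus day 45, -0.37 for day 70 minus day 45 and -0.38 for day 70 minus day 55. Of all genes, 4.31% were as low or lower for day 70 minus day 45, and 9.12% for day 70 minus day 55. No member was 2-fold apart between any 2 arrays of that slide. The share of all genes at least 2-fold apart in these 3 pairs was 0.88%, 0.989% and 0.874% higher and 0.744%, 0.974% and 0.962% lower. Set against the mean of the other 2 arrays of its slide in place of control, Socs3 was at 0.17 on day 45, 0.20 on day 55 and -0.37 on day 70.

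The downward differences across slides went with dim probes and with GC-rich probes among all genes. The Stat5b probe is dim, and the Socs3 probe is GC-rich. When genes were split into 3 equal groups by mean signal, the dimmest group had 21%, 19.5% and 26% of its genes at least 2-fold lower on days 45, 55 and 70, the middle group 5.71%, 3.93% and 5.73%, and the brightest 0.19%, 0.121% and 0.173%. Stat5b belongs to the dimmest group, Socs3, Stat5a, Stat6 and Jak2 to the middle one, and Stat2, Stat3, Jak1 and Jak3 to the brightest. The Socs3 probe has 33 G or C bases of 60, the most of the 9, and the others have 15 to 29. Among middle-group genes whose probes have 31 to 33 such bases, 10%, 6.84% and 10.8% were at least 2-fold lower on days 45, 55 and 70, with medians of -0.17, -0.24 and -0.19. Among dimmest-group genes with 25 to 27, as in the Stat5b probe, 849, 934 and 902 could be compared on those days. The shares were 21.7%, 22.5% and 27.7% of these, with medians of -0.53, -0.42 and -0.60. The part of probe signal and base composition in the Socs3 and Stat5b values was not tested.

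Background correction also moved these values. With normexp correction, which adds an offset and so shrinks differences of dim probes, Socs3 was at -0.82 on day 45, at -0.72 on day 55 and just short of 2-fold lower on day 70. Stat5b was then at -0.47, -0.22 and -0.45. In the authors' deposited table Socs3 was at -0.86, -0.82 and -1.08, and Stat5b at -0.53, -0.23 and -0.37. Both genes were below control on all 3 days in each of these settings, whereas the count of members past 2-fold was 0, 0 and 0 with normexp and 0, 0 and 1 in the authors' deposited table.

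**Figure D3:**
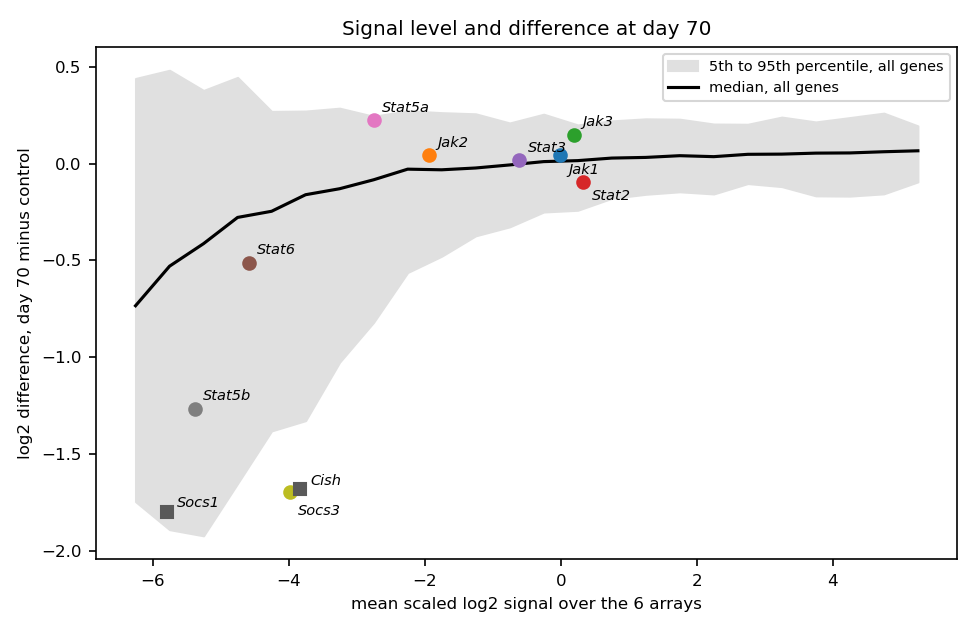
Difference at day 70 from control (log2) against the mean scaled log2 signal over the 6 arrays; the grey band is the 5th to 95th percentile and the black line the median of all genes in steps of signal, circles are the 9 members, and squares are Cish and Socs1. The median of all genes compared falls away from 0 at low signals. Socs3 at -1.70 and Cish at -1.68 lie below the band, and Stat5b at -1.27 and Socs1 at -1.80 lie inside it.

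Other genes of the SOCS family were then set beside Socs3; these were singled out after their values were seen. Cish, a relative that is a classic STAT5 target, had signals of 156 at day 21, 137 at day 35, 59.1 at day 45, 57.3 at day 55 and 51.0 at day 70, against 163 in control. It was close to control on the first slide and 2.76, 2.85 and 3.2-fold lower on the second, and its probe has 31 G or C bases. Socs1, the inhibitor best known from interferon signals, was at -0.73 at day 21, -1.27 at day 35, -1.10 at day 55, and at least 2.77-fold lower at day 45 and 3.47-fold lower at day 70, where its probe was not well above background. Its probe has 41 G or C bases. The probes of Socs2, Socs4 and Socs7, with 23 to 27 such bases, were between -0.82 and -0.02 on all days. Socs5, the one gene of the family in the brightest group, was between -0.17 and 0.06.

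Among 17 other pathway components that could be compared at day 21, 1 was at least 2-fold higher and none lower, with a median of -0.04. That gene was Ptpn6, a phosphatase of blood cells and microglia that takes phosphate off JAKs and receptors, with a signal of 2309.0 at day 21 against 599 in control, a difference of 1.95. On the other days it lay between -0.01 and 0.24. On days 45, 55 and 70 the list had 2 genes at least 2-fold lower each, Cish and Socs1, beside 5.78%, 4.98% and 6.73% of all genes.

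Of 30 receptors on the array that signal through JAK kinases, 22 could be compared at day 21, of which 3 were at least 2-fold higher and none lower, with a median of 0.24. They were Csf3r, the receptor of granulocyte colony-stimulating factor, at 1.39, Epor, the erythropoietin receptor, at 1.31, and Il10rb, a chain of the IL-10 receptor, at 1.01. The count takes 1 probe per gene. Il13ra1 was at 0.92 by the probe used and at 1.67 by its other probe. The Csf3r and Epor probes were dim in control, with signals of 28.8 and 26.2, in the range where the technical SD was 0.380. Csf3r also stands in the neutrophil marker list, in which 3 of 5 genes compared were 2-fold higher at day 21: Csf3r itself, Mpo and S100a8. S100a8 was not well above background in control. S100a9 was at 0.29 and Camp at -0.63. The summed signal of the list was 0.276, against 0.207 in control, with Elane not well above background on any array. The ligands gave no gene 2-fold higher or lower at day 21 among 12 compared, and their median was -0.10. 12 ligand probes, Il6 among them, were not well above background on either array. Osm and Il11, ligands of the IL-6 family, were lower on the later days, Osm by 2.84, 2.25 and 2.36-fold and Il11 by 2.98, 2.26 and 2.24-fold on days 45, 55 and 70, and within 0.19 of control on the first slide.

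Of 17 STAT3 targets compared, 6 were at least 2-fold higher at day 21 and none lower, beside 3.61% and 1.83% of all genes. The list, which holds Socs3 itself, had a median of 0.42, against -0.07 for all genes. Bcl3, a co-activator of NF-kappaB, had the largest difference at 2.81, with a signal of 500.0 against 71.4 in control. Lcn2, an acute-phase protein of reactive astrocytes, was at 2.50, the protease inhibitor A2m at 2.02, and Timp1, an inhibitor of matrix proteases, at 1.37. Socs3 was at -0.41 on the same array, below control. On days 45, 55 and 70 the list had 1, 3 and 3 genes at least 2-fold lower and none higher. Of all genes, 5.78%, 4.98% and 6.73% were as far below control on those days. Socs3 was the only such gene of the list on day 45, and Serpina3n and Osmr joined it on days 55 and 70. Osmr was not well above background on days 55 and 70, and Serpina3n was not on day 70.

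The STAT5 targets numbered 6, of which Igf1, an insulin-like growth factor, was at 2.65 at day 21, with a signal of 6350.6 against 1008.3 in control, and no other was past 2-fold. Cish and Osm, from the same list, were 2-fold lower on each of the 3 later days. Of 8 STAT6 targets compared none was past 2-fold at day 21, and the median was -0.07. Only Socs1 was 2-fold lower on every later day.

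**Figure D4:**
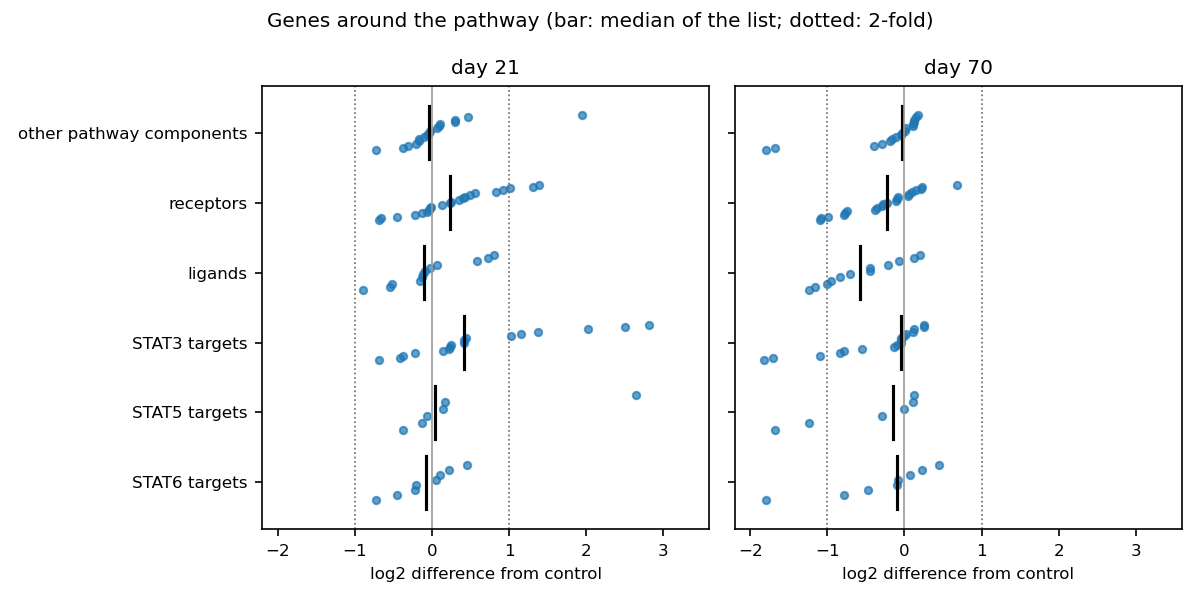
Difference from control (log2) of the genes in 6 lists around the pathway at day 21 (left) and day 70 (right); points are genes, black bars the median of each list, dotted lines 2-fold. At day 21 the STAT3 targets have a median of 0.42 with 6 of 17 genes right of the upper 2-fold line, and at day 70 their median is -0.04.

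Cell markers moved with the day 21 values. Of 14 microglia and macrophage markers, 11 were at least 2-fold higher at day 21, with a median of 1.66, and their summed signal (in units of the 75th percentile) was 71.7, against 23.5 in control. On the other days the sum was 22.3 to 26.6, and all 14 markers were well above background on every array. Of 8 astrocyte markers, 1 was 2-fold higher at day 21, and the sum was 97.3 against 79.0 in control. The meninges and fibroblast sum was 9.5 at day 21 against 4.1 in control, a list of which 3 of 7 genes were 2-fold higher. The neuron sum was lower, at 28.7 against 34.2 in control. Of 9 neuron markers 7 were below control at day 21, with a median of -0.26, and none was 2-fold away. Of 7 choroid plexus markers compared, 6 were 2-fold higher at day 21, with a median of 2.01. Their sum was at least 51.6 at day 21, 26.4 at day 35 and 44.0 at day 70, against 3.13 in control. Most of that sum is the signal of Ttr, whose probe was saturated at day 21 and at least 17.6-fold higher there. In pooled tissue RNA, more cells of a type and more RNA per cell cannot be told apart. The part of these cell types in the Stat5a, Jak3, Stat3 and target gene values was not tested.

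The later days went with other marker lists. The lymphocyte sum was 0.27, 0.326 and 0.311 on days 45, 55 and 70, against 0.531 in control, and Cd3g, Cd8a, Cd2, Cd79b and Ms4a1 were not well above background on any array. Its brightest probe, that of Cd3d, was at -1.33, -1.14 and -1.26 on those days. Of 7 genes compared, 7, 5 and 5 were below control, and Cd3e and Cd8b were above it on days 55 and 70. The red blood cell sum was 34.4, 52.7 and 38.7 on those days, against 60.4 in control. The neuron sum was 33.8, 33.3 and 35.4, against 34.2 in control. Their part in the Socs3 and Stat5b values was not tested.

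Among 12333 genes well above background on all 6 arrays, the 3 genes whose profile over the arrays was nearest to that of Stat3, each profile centred on its own mean, were Man1c1, Lrrc51 and Tbc1d2b, with root mean square differences of 0.019, 0.030 and 0.032 log2 units. They were at 0.63, 0.56 and 0.55 at day 21, beside 0.59 for Stat3. The nearest to Socs3 were Inpp5a, Or10p22 and Ecel1, at 0.085, 0.086 and 0.100 log2 units. They were at -1.46, -1.57 and -1.68 at day 70, beside -1.70 for Socs3. Both sets of genes were picked for nearness over these same arrays, so the closeness of these values follows from the choice.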

How the data were processed

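The authors deposited 1 scanner file per array, made, per the file headers, by Agilent Feature Extraction (version 10.7.3.1; array design 028282). The intensity used is, per the file headers, the processed green signal, background-subtracted and detrended, with no scaling between arrays; the labels name Cy5. A second table that the authors deposited holds linear intensity values with 75th percentiles of 1432.0 to 1432.5 on every array, and its making is not described in the labels.

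Control spots and outlier spots (346 to 470 per array) were left out, saturated spots kept. Signals were scaled by each array's 75th percentile (1242.9 to 1504.4) and put on the log2 scale, spots of a probe averaged, and the probe with the highest mean stood for a gene. Of 30367 probes, 17328 were named by accession, 2635 by symbol and 718 by synonym through RefSeq genes (assembly GRCr8), 183 kept the file's name and 9503 stayed unnamed. A comparison of 2 arrays took in genes well above background on either; a dimmer probe took the array's lowest signal well above background, or its own if higher, and gave a bound. The count of genes past 2-fold was checked on simulated data. Groups have 1 array each, so there was no test; precision is limited by the few arrays. Alternatives changed the scaling, background correction (normexp in limma 3.58.1, offset 50), source table, probe choice, outlier rule, filter, threshold or baseline.

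All members were named, with at most 4 genes per pathway list, the largest measured differences past 2-fold at day 21, at most 2 past 2-fold on all of days 45, 55 and 70, and the 3 nearest profiles of Socs3 and Stat3. Other named genes were chosen after their values were seen. The members and lists were chosen with earlier results of these data known. Some of the values computed for genes around the pathway are not reported here.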

Additional observations from a re-analysis of the deposited data

How the results depend on the processing

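No paired analysis was possible because each group has 1 array and the labels carry no replicate numbers. At a 1.5-fold threshold the members higher at day 21 numbered 3 in place of 0, those lower at day 35 2 in place of 0, those lower at day 55 2 in place of 1, and those lower at day 35 against day 21 2 in place of 0. The members at least 2-fold lower at day 45 (2) numbered 1 under quantile normalization, 0 under normexp, 0 in the authors' deposited table, 1 among genes well above background on all 6 arrays and 0 against the slide's own mean. At day 55 (1) they numbered 0 under normexp, 0 in the authors' deposited table and 0 against the slide's own mean, and at day 70 (2) 1 under quantile normalization, 0 under normexp, 1 in the authors' deposited table, 1 among genes well above background on all arrays and 0 against the slide's own mean. The filter removes Stat5b. Against control across slides 2 members were past 2-fold on some day, beside 4.98% to 6.73% of all genes lower and 0.596% to 0.663% higher. Between arrays of 1 slide 0 were, beside 0.744% to 4.5% of all genes lower and 0.452% to 3.61% higher. Only Socs3, at 0.17 on day 45 and 0.20 on day 55 against its slide's own mean, turned from a called difference to the other sign. Of 399 member values over 9 settings, 358 kept the sign of the value reported. The probe choice, outlier and filter settings left every member value they kept unchanged, so those signs could not differ. Against the slide's own mean 28 of 44 values kept their sign. The authors' deposited table kept 37 of 45, median scaling 38 of 45, normexp 39 of 45 and quantile normalization 41 of 45.

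Among all genes, those at least 2-fold lower at day 45 numbered 795 as reported, 304 under quantile normalization, 108 under normexp, 152 in the authors' deposited table, 448 among genes well above background on all arrays and 1963 with no filter. At day 55 these counts were 695, 419, 77, 172, 291 and 1398, and at day 70 935, 409, 130, 194, 452 and 1911. At day 21 the genes 2-fold higher numbered 502 as reported and 240 under normexp, 319 among genes well above background on all arrays and 781 with no filter. Against the mean of the other arrays of the slide, the genes 2-fold lower numbered 55, 22 and 33 on days 45, 55 and 70. Scaling by the median moved the median of all genes at day 45 to 0.06, against -0.06 as reported. Socs3 on the later days was then at -1.21, -1.23 and -1.60. Stat5b is limited by a signal near background. The causes of these shifts were not tested.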

Other observations

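RefSeq promoter windows (assembly GRCr8), 250 bases before to 50 after the gene start, were found for 7 of the 9 members, all but Jak1 and Jak3. The letters TTCNNNGAA, which reads the same on both strands and is the usual form bound by STAT pairs, occurred in 0 of these 7 windows and in 8.87% of all 33469 windows. The form with 1 more base between the arms, TTCNNNNGAA, favoured by STAT6, occurred in 0 of 7 and in 7.28% of all windows. GAAANNGAAA, on either strand, a form of the interferon response element bound through STAT2, occurred in 0 of 7 and in 3.92% of all. These counts say only that the letters are not in these windows.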
